A study of Mus musculus with 10 samples.

Results

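Xiap, the cellular IAPs Birc2 and Birc3, Birc6, the IAP antagonist Diablo (Smac), and the caspase genes Casp2, Casp8 and Casp9 with the caspase activator Apaf1 were followed by every probe set whose platform gene symbol was one of these 9 names. There were 20 such probe sets among the 22690 on the array, which name 12394 genes. The genes were selected on the measured values of these same arrays, because 1 Xiap probe set had shown a large difference between the IL-3 doses, so the differences between doses in these genes are given as descriptions, and no test of them is read. RNA came from 32Dcl3 mouse myeloblasts, a cell line that depends on IL-3 for growth and survival. The cells had been washed free of IL-3, and all received actinomycin D at 10 µg/ml to block transcription. The groups were 0 h, without added IL-3, and 2 h and 4 h in IL-3 at 1 ng/ml (high IL-3) or at 0.01 ng/ml (low IL-3), each with 1 array in each of 2 experiments, 10 arrays in all. The sample titles place the 0 h samples after actinomycin D while their descriptions place them before it, and in the study's methods cytokine was added 20 min after the drug. The 5 arrays of an experiment came from 1 divided culture, so n = 2 cultures of a single cell line stood behind every mean and p-value.

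IAPs carry BIR domains. XIAP binds and inhibits caspases directly, whereas the cellular IAPs act mainly as ubiquitin ligases in TNF receptor and NF-κB signalling, and Smac, released from mitochondria, relieves caspases of IAPs. Apaf1 assembles with cytochrome c into the apoptosome that activates caspase-9, caspase-8 starts the death receptor pathway, and caspase-2 is activated on the PIDD platform. In IL-3-dependent myeloid cells, cytokine withdrawal leads to apoptosis through the mitochondrial pathway.

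The values were dChip-normalized probe set intensities on a linear scale, with array medians from 48.8 to 70.6. Of the 20 probe sets, 14 had a mean intensity of at least 50 over the 10 arrays and were tested, and each of the 9 genes had at least 1 among them. At 0 h, 10 of 13 genes marking myeloblasts and granulocyte precursors reached 50, among them Ctsg, Prtn3 and the IL-3 receptor chains, while Elane, Kit and Cd34 had means of 19.1, 10.2 and 3.92. Mpo was at 3409 in experiment 1 and 509 in experiment 2. None of 7 lymphoid genes reached 50. Of the markers of other lineages, 3 of 5 macrophage genes, 3 of 6 mast cell and basophil genes and 3 of 5 erythroid and megakaryocyte genes did, led by Adgre1 at 3085, Itga2b at 1898 and Cpa3 at 1209. Over all 11856 tested probe sets the median log2 change, averaged over both doses, was -0.06 at 2 h and -0.11 at 4 h. The direction of small changes depended on how the arrays were scaled. At 4 h, 4696 probe sets passed as lower and 1893 as higher, against 2877 and 6250 after scaling to the 75th percentile, 3181 and 5197 after quantile normalization, 2848 and 6394 with the arrays centred on their median, and 3730 and 4283 with the arrays aligned on the median difference. The same held at 2 h, where 3058 and 424 became 1928 and 4872 with median centring, and from 2 h to 4 h, where 3261 and 703 became 2230 and 3792. Changes are log2 differences of intensity + 16, with limma standard errors and adjusted p-values over all 11856 probe sets. They are levels relative to the other transcripts on the array, and fewer cells with a transcript and less of it per cell cannot be told apart in such bulk RNA.

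The caspase activator Apaf1, both cellular IAPs and 1 Xiap probe set fell the most over 4 h, and Casp8 and Birc6 fell by smaller amounts. Diablo passed as higher than at 0 h, a call that some alternatives lost for both of its probe sets. The order among these genes was not tested. The study takes levels above 0 h as measurement noise because transcription was blocked, which was not tested here. Of the 14 tested probe sets, 7 passed as lower at 4 h with both doses averaged, where 39.6% of all tested probe sets did, and 2 passed as higher, where 16% did. The 7 stood for 6 genes, namely Apaf1, Birc2, Birc3, Birc6, Casp8 and Xiap, and the 2 were both Diablo. Without the experiment as a block 6 passed as lower, Birc6 no longer among them, and 0 as higher. The remaining 5 belonged to Xiap (2), Casp9 (2) and Casp2 (1). The median log2 change of the 14 was -0.40, with a range from -2.27 to 0.46, beside the median of -0.11 over all tested probe sets.

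**Figure D1:**
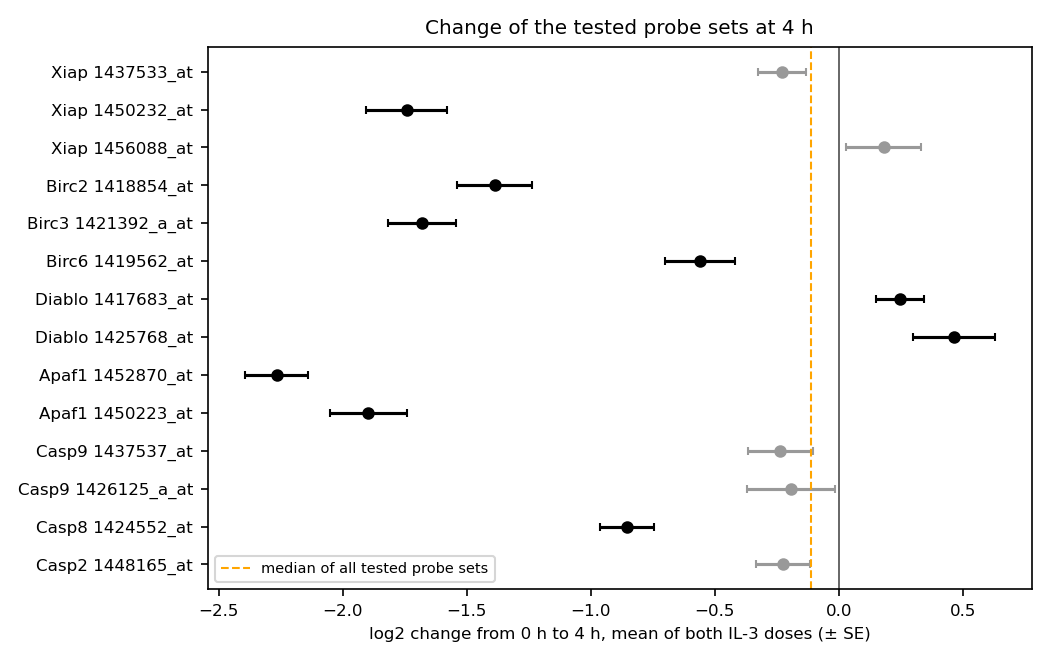
Log2 change from 0 h to 4 h (horizontal axis, mean of both IL-3 doses) for each of the 14 tested probe sets. Points are limma estimates with bars of 1 SE; black marks an adjusted p under 0.05, grey the others, and the dashed line is the median of all tested probe sets at -0.11. Both Apaf1 probe sets, Birc2, Birc3 and Xiap 1450232_at lie between -2.27 and -1.39, and both Diablo probe sets lie above 0.

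Xiap was read by 6 probe sets, and the 3 that were tested did not follow the same course. Probe set 1450232_at measured 396 and 345 at 0 h in experiments 1 and 2. Its high IL-3 arrays read 355 and 282 after 2 h and 189 and 119 after 4 h, and its low IL-3 arrays 199.6 and 91.9 after 2 h and 89.5 and 45.0 after 4 h. Every later array was below the 0 h array of its own experiment, although the 2 h array of high IL-3 in experiment 1 was above the 0 h array of experiment 2. At each time both high IL-3 arrays were above both low IL-3 arrays. The level after 2 h of low IL-3 was above that after 4 h of high IL-3 in experiment 1 and below it in experiment 2, so those conditions had no fixed order.

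Probe set 1437533_at measured 1486 and 1051 at 0 h. With high IL-3 it read 918 and 829.5 after 2 h and 1077 and 1003 after 4 h, and with low IL-3 1268 and 1086 after 2 h and 1159 and 1026 after 4 h. Its lowest arrays were the 2 of high IL-3 at 2 h, and the arrays at 4 h overlapped the 0 h arrays. Probe set 1456088_at measured 178 and 212 at 0 h. The high IL-3 arrays measured 166 and 148 after 2 h and 188 and 267 after 4 h, and the low IL-3 arrays 168 and 258 after 2 h and 202 and 242 after 4 h. Here the 0 h arrays lay within the spread of the later ones. Levels are not compared between probe sets, because each binds its target with its own strength.

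**Figure D2:**
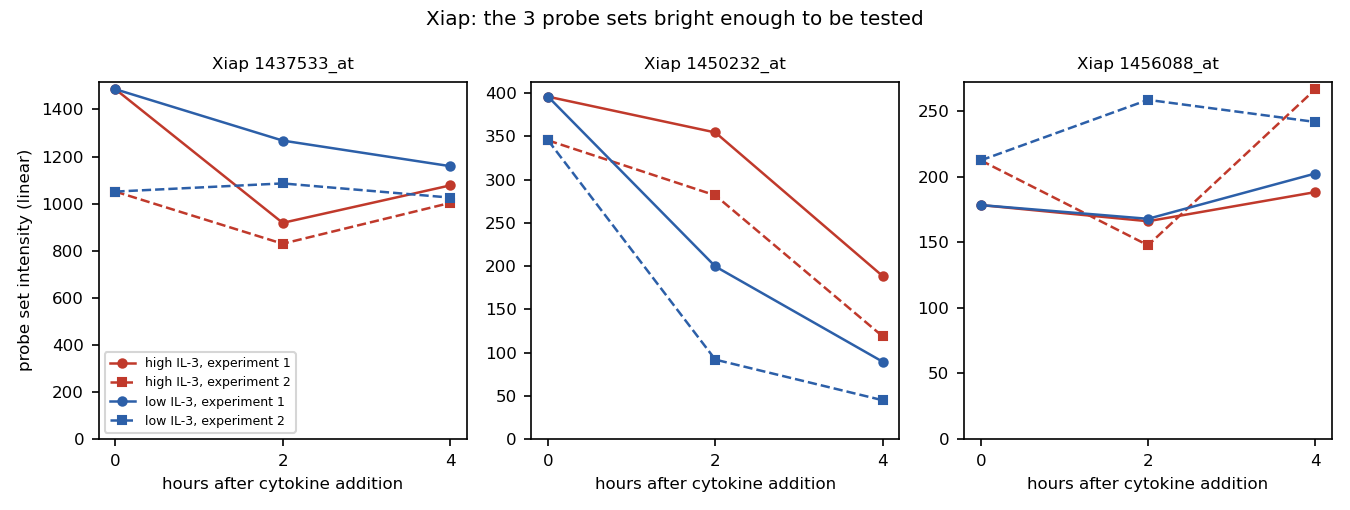
Intensity on a linear scale (vertical axis, from 0) against hours after cytokine addition for the 3 tested Xiap probe sets, 1 line for each experiment and dose, with the 0 h array shared by both doses of an experiment. The lines of 1450232_at descend to between 45.0 and 189 at 4 h with high above low IL-3, whereas at 4 h those of 1437533_at stand between 1003 and 1159, below 0 h in both experiments, and those of 1456088_at between 188 and 267, above it.

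Averaged over both doses, 1450232_at fell by 1.74 on the log2 scale at 4 h (SE 0.16, adjusted p = 1.6e-07), which is -1.63 relative to the median probe set. Only 7.19% of all tested probe sets had a lower value. Because this probe set was chosen for its difference between doses, its p-value and rank are no independent test of a fall. The changes of 1437533_at and 1456088_at at 4 h were -0.23 (SE 0.10, adjusted p = 0.056) and 0.18 (SE 0.15, adjusted p = 0.33), or -0.12 and 0.29 relative to the median probe set. The first passed as lower without the 0 h array of experiment 2 or without either array of high IL-3 at 2 h. It was above 0 with 75th percentile scaling, quantile normalization or median centring, and 1456088_at passed as higher under those and with the arrays aligned on the median difference. At 2 h, 1437533_at had passed as lower at -0.30 (SE 0.10, adjusted p = 0.028), a call lost in 11 of 21 alternatives. It was lost with scaling to the 75th percentile or to Gapdh, quantile normalization, median alignment or median centring. Leaving out the block or the variance trend also lost it. So did the fits without the 0 h array or the 2 h array of high IL-3 of experiment 1, or without either 2 h array of low IL-3. Over all settings the value stayed below 0, the highest being -0.03.

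In percent of the 0 h array, 1450232_at stood at 85.6 ± 5.63 (SD, n = 2) at the high and 38.5 ± 16.8 at the low dose after 2 h, and at 41.0 ± 9.34 and 17.8 ± 6.78 at 4 h. A straight line through the logarithm of these ratios gave half-lives of 3.66 ± 0.977 h in high and 1.59 ± 0.432 h in low IL-3. In high IL-3 more of the fall came after 2 h than before it, so that half-life is only a summary of the course. At 2 h, the other probe sets stood at 70.4 ± 12.1 at the high and 94.3 ± 12.7 at the low dose for 1437533_at, and at 81.3 ± 16.7 and 108 ± 19.5 for 1456088_at. At 4 h they stood at 83.9 ± 16.2 and 87.8 ± 13.8, and at 116 ± 14.1 and 114 ± 0.216. The mean of 1450232_at was higher with high IL-3 at both times, and that of 1437533_at with low IL-3 at both times.

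Over the 10 arrays, with each experiment centred on its own mean, log2 values of 1437533_at correlated with those of 1450232_at at r = -0.13 and with those of 1456088_at at r = 0.45, and 1450232_at correlated with 1456088_at at r = -0.64. These are descriptions over 10 arrays that share 0 h samples, cultures and array scaling. The platform annotation assigned 1450232_at and the dim probe sets 1421394_a_at and 1450231_a_at to the same sequence record, and 1437533_at and 1456088_at to another. The dim probe sets of Xiap stayed between 9.58 and 18.3 (1421394_a_at), 4.17 and 20.2 (1426636_a_at), and 11.7 and 33.3 (1450231_a_at) on all 10 arrays, so they gave no reading of the transcript's course. Which part of the transcript each probe set reads was not analysed here.

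**Figure D3:**
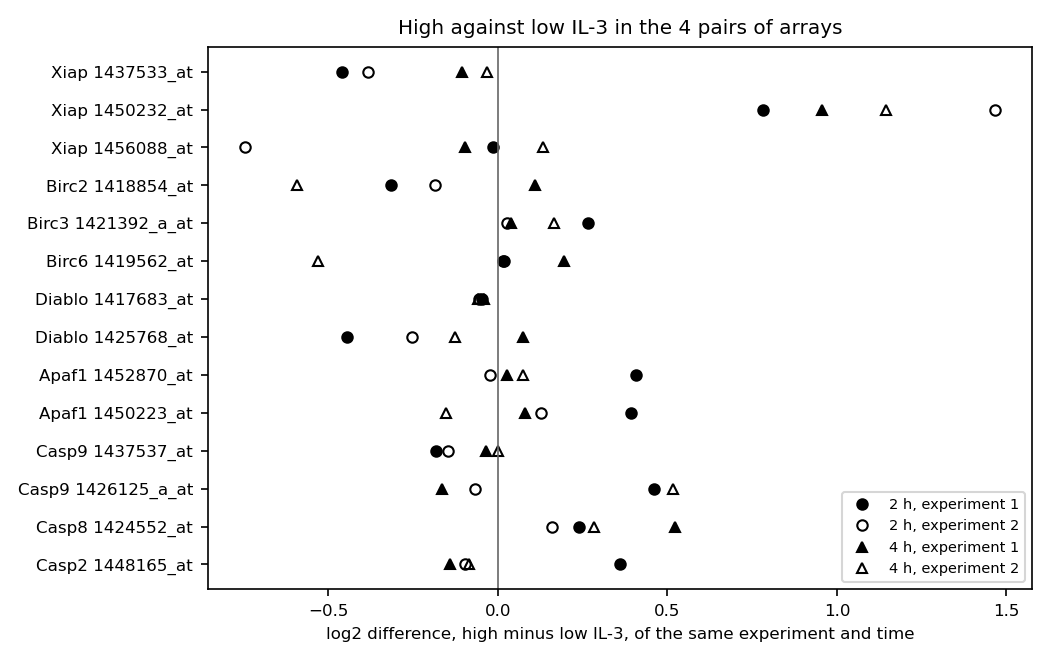
Log2 difference between high and low IL-3 (horizontal axis) in each of the 4 pairs of arrays matched for experiment and time, for the 14 tested probe sets. Filled symbols are experiment 1, open symbols experiment 2, circles 2 h and triangles 4 h. Xiap 1450232_at lies between 0.78 and 1.46 in all 4 pairs, and the other 13 stay between -0.75 and 0.52.

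Between doses, 1450232_at was higher in high IL-3 in 4 of 4 pairs of arrays, with log2 differences of 0.78 and 1.46 at 2 h and 0.96 and 1.15 at 4 h in experiments 1 and 2. The pairs of 1437533_at gave -0.46 and -0.38 at 2 h and -0.10 and -0.03 at 4 h, and those of 1456088_at gave -0.01, -0.75, -0.10 and 0.13. Because the genes were selected on this difference, a threshold on it is no test here, and nothing is read from the counts: 1 of the 14 lay past it as higher in high IL-3, the Xiap probe set on which the choice rested, and 0 as lower, where 0.692% and 0.0169% of all tested probe sets did. The 4 pairs of Casp8 were also above 0, at 0.24 and 0.16 at 2 h and 0.52 and 0.28 at 4 h. Birc3 1421392_a_at too had 4 pairs above 0, from 0.03 to 0.27, and Diablo 1417683_at had 4 pairs below 0, from -0.06 to -0.04.

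The probe sets of other genes most like Xiap 1450232_at in their experiment-centred log2 values over the 10 arrays belonged to Yrdc and Tra2a (r = 0.98 each), Gch1 and Polb (0.98 each) and Tgds (0.97). Yrdc 1434744_at stood at 91.3% of 0 h after 2 h and 50.2% after 4 h of high IL-3, and at 43.1% and 22.3% with low IL-3. Gch1 1420499_at, the first enzyme of tetrahydrobiopterin synthesis, stood at 91.8% and 62.8%, and at 49.9% and 27.2%. Tra2a 1454725_at, a splicing regulator, changed less, from 93.3% and 81.8% in high to 76.1% and 64.3% in low IL-3. Among the genes studied here, Casp8 was most like Xiap 1450232_at (r = 0.91), followed by Apaf1 (0.82 for both probe sets). The correlations of Diablo were negative (-0.70 and -0.86). Such correlations ignore the size of a change. Because 1450232_at was taken for its difference between doses, dose differences in the probe sets most like it follow from that choice.

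The cellular IAPs Birc2 and Birc3 had fallen by 2 h, and their change from there to 4 h did not pass. Birc2 1418854_at measured 445 and 274 at 0 h. After IL-3 addition the high dose read 150.4 and 99.8 after 2 h and 164 and 76.0 after 4 h, and the low dose 191 and 116 after 2 h and 151 and 123 after 4 h. All 8 later arrays were below both 0 h arrays, while those of 2 h and 4 h overlapped. Birc3 1421392_a_at measured 481 and 262 at 0 h. Its high IL-3 arrays read 159 and 88.1 after 2 h and 132 and 81.7 after 4 h, and its low IL-3 arrays 129.8 and 86.1 after 2 h and 128 and 71.1 after 4 h. Again no later array reached the 0 h level.

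At 2 h, averaged over doses, 7 of the 14 tested probe sets passed as lower, where 25.8% of all tested probe sets did. As higher 0 passed, where 3.58% did. At an unadjusted p under 0.05 in limma, 8 were lower and 0 higher, beside 4575 of all 11856 in either direction. The 7 were both of Apaf1, Birc2, Birc3, Casp8 and 2 of Xiap (1437533_at, and 1450232_at on which the choice of genes rested). Without the experiment as a block 1 of them, Apaf1 1450223_at, still passed. The log2 change of Birc2 was -1.27 (SE 0.15, adjusted p = 7.1e-06) and that of Birc3 -1.53 (SE 0.14, adjusted p = 3.9e-07). At 4 h the changes from 0 h were -1.39 (SE 0.15, adjusted p = 8.9e-07) for Birc2 and -1.68 (SE 0.14, adjusted p = 3.4e-08) for Birc3. In percent of 0 h, Birc3 stood at 33.4 ± 0.390 at the high and 29.9 ± 4.18 at the low dose after 2 h, and at 29.3 ± 2.64 and 26.9 ± 0.348 at 4 h. Birc2 stood at 35.1 ± 1.82 and 42.6 ± 0.560, and then at 32.3 ± 6.44 and 39.3 ± 7.66.

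From 2 h to 4 h, 4 of the 14 passed as lower, where 27.5% of all tested probe sets did. As higher 0 passed, where 5.93% did. At an unadjusted p under 0.05 in limma, 4 were lower and 2 higher, beside 5149 of all 11856 in either direction. The 2 higher were Diablo 1425768_at and Xiap 1456088_at. The 4 were both of Apaf1, Casp8 and Xiap 1450232_at, on which the choice of genes rested, and neither cellular IAP was among them. Again Apaf1 1450223_at was the one that passed without the block. Birc2 changed by -0.11 (SE 0.12, adjusted p = 0.51) and Birc3 by -0.15 (SE 0.11, adjusted p = 0.34) in these 2 h, and both values were above 0 with the arrays centred on their median. In a test added after these values were seen, the change from 2 h to 4 h minus the change from 0 h to 2 h was 1.16 for Birc2 (SE 0.23, adjusted p = 0.0053) and 1.39 for Birc3 (SE 0.21, adjusted p = 5.9e-04). These were the 2 of the 14 that passed as higher, where 4.98% of all tested probe sets did. As lower 0 passed, where 1.03% did. At an unadjusted p under 0.05 in limma, 0 were lower and 3 higher, beside 1853 of all 11856 in either direction. Neither Birc2 nor Birc3 passed without the block. Birc2 and Birc3 are related genes and stand side by side in the RefSeq gene table, with 0 genes listed between them; whether each probe set reads the other gene was not tested.

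**Figure D4:**
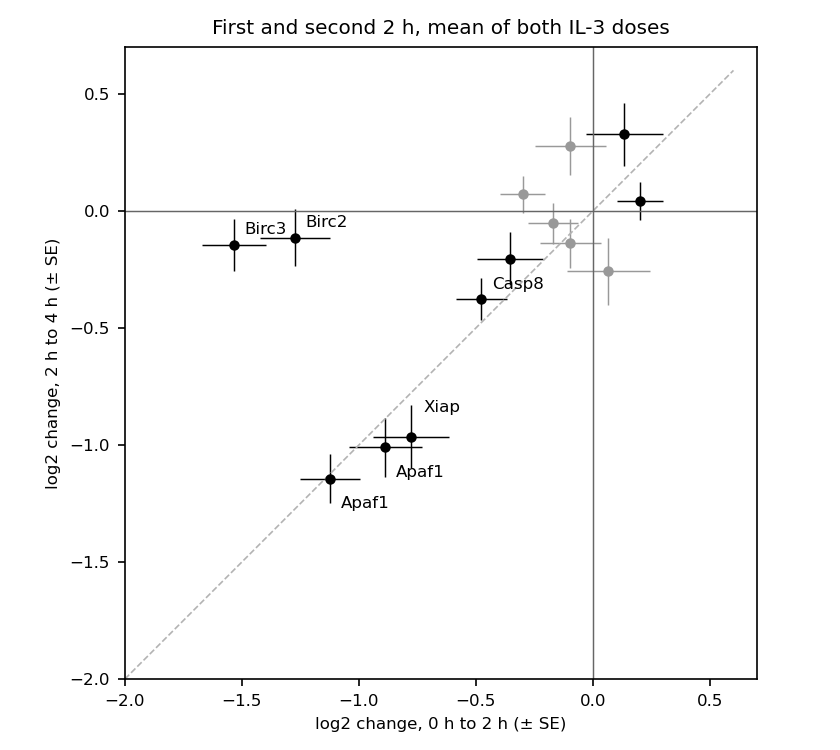
Log2 change from 2 h to 4 h (vertical axis) against log2 change from 0 h to 2 h (horizontal axis), each the mean of both doses with bars of 1 SE, for the 14 tested probe sets. Black marks an adjusted p under 0.05 at 4 h, grey the others, and on the dashed line both changes are equal. Birc2 and Birc3 lie at -1.27 and -1.53 on the horizontal axis and close to 0 on the vertical one. Apaf1, Casp8 and Xiap 1450232_at lie near the dashed line. The Xiap point averages doses whose courses differed in the first 2 h. In high IL-3 this probe set stood at 85.6% of 0 h at 2 h and 41.0% at 4 h, and in low IL-3 at 38.5% and 17.8%.

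Birc6, a very large IAP that is also a ubiquitin-conjugating enzyme, fell at 4 h, with a log2 change nearer to 0 than those of Birc2 and Birc3; that difference was not tested. Its probe set 1419562_at measured 456 and 398 at 0 h. With high IL-3 it read 334 and 329 after 2 h and 312 and 228 after 4 h, and with low IL-3 329 and 325 after 2 h and 271 and 336 after 4 h. All later arrays were below both 0 h arrays. The log2 change at 4 h was -0.56 (SE 0.14, adjusted p = 0.0032), or -0.45 relative to the median probe set, and it did not pass with 75th percentile scaling, quantile normalization or median centring, or without the experiment as a block. The other Birc6 probe sets, 1419563_at and 1427488_a_at, and Birc3 1425223_at had mean intensities of 17.2, 44.4 and 2.36 and were not tested.

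Diablo, the antagonist of the IAPs, had probe sets above their 0 h level. Probe set 1417683_at measured 1128 and 910.4 at 0 h. The high IL-3 arrays measured 1188 and 1109 after 2 h and 1143 and 1225 after 4 h, and the low IL-3 arrays 1227 and 1153 after 2 h and 1176 and 1277 after 4 h. In experiment 1 the arrays at 4 h were at 101% and 104% of 0 h in high and low IL-3, and in experiment 2 at 135% and 140%. Its log2 change at 4 h was 0.25 (SE 0.10, adjusted p = 0.044), or 0.36 relative to the median probe set, and the call was lost in 8 of 21 alternatives. Among these were the fits that left out the 0 h array or either 4 h array of experiment 2, or either 2 h array of low IL-3.

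Diablo 1425768_at, a dim probe set, measured 65.1 and 29.8 at 0 h. After IL-3 addition the high dose read 58.7 and 31.0 after 2 h and 86.9 and 51.2 after 4 h, and the low dose 85.5 and 40.1 after 2 h and 81.8 and 57.4 after 4 h. The 0 h array of experiment 1 was above every array of experiment 2, so the groups overlapped. The log2 change was 0.46 (SE 0.16, adjusted p = 0.026), or 0.57 relative to the median probe set, and was lost in 6 of 20 alternatives, among them the fits without either 0 h array or without either 4 h array of experiment 2.

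Apaf1, the scaffold of the apoptosome, kept falling over both intervals. Probe set 1452870_at measured 1111 and 728 at 0 h. Its high IL-3 arrays read 628 and 298 after 2 h and 221 and 142 after 4 h, and its low IL-3 arrays 469 and 303 after 2 h and 217 and 134 after 4 h. The 0 h, 2 h and 4 h arrays did not overlap. Probe set 1450223_at measured 204 and 247, then 141 and 113 after 2 h of the high dose and 104 and 102 after 2 h of the low dose, and 49.1 and 46.4 against 45.6 and 53.5 after 4 h, also without overlap between times.

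The log2 change of Apaf1 at 4 h was -2.27 (SE 0.13, adjusted p = 6.0e-10) for 1452870_at and -1.90 (SE 0.16, adjusted p = 3.2e-08) for 1450223_at, with 3.52% and 5.85% of all tested probe sets lower. From 0 h to 2 h they changed by -1.12 (SE 0.13) and -0.89 (SE 0.16), and from 2 h to 4 h by -1.14 (SE 0.10) and -1.01 (SE 0.13), each passing in both intervals. The percent of 0 h left at 4 h was 19.7 ± 0.286 at the high and 19.0 ± 0.766 at the low dose for 1452870_at, and 21.4 ± 3.71 and 22.0 ± 0.486 for 1450223_at. Half-lives ranged from 1.65 ± 0.0356 h to 1.92 ± 0.333 h over both probe sets and doses. The pairs of high and low IL-3 arrays differed by between -0.15 and 0.41 on the log2 scale, with the largest differences at 2 h in experiment 1.

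**Figure D5:**
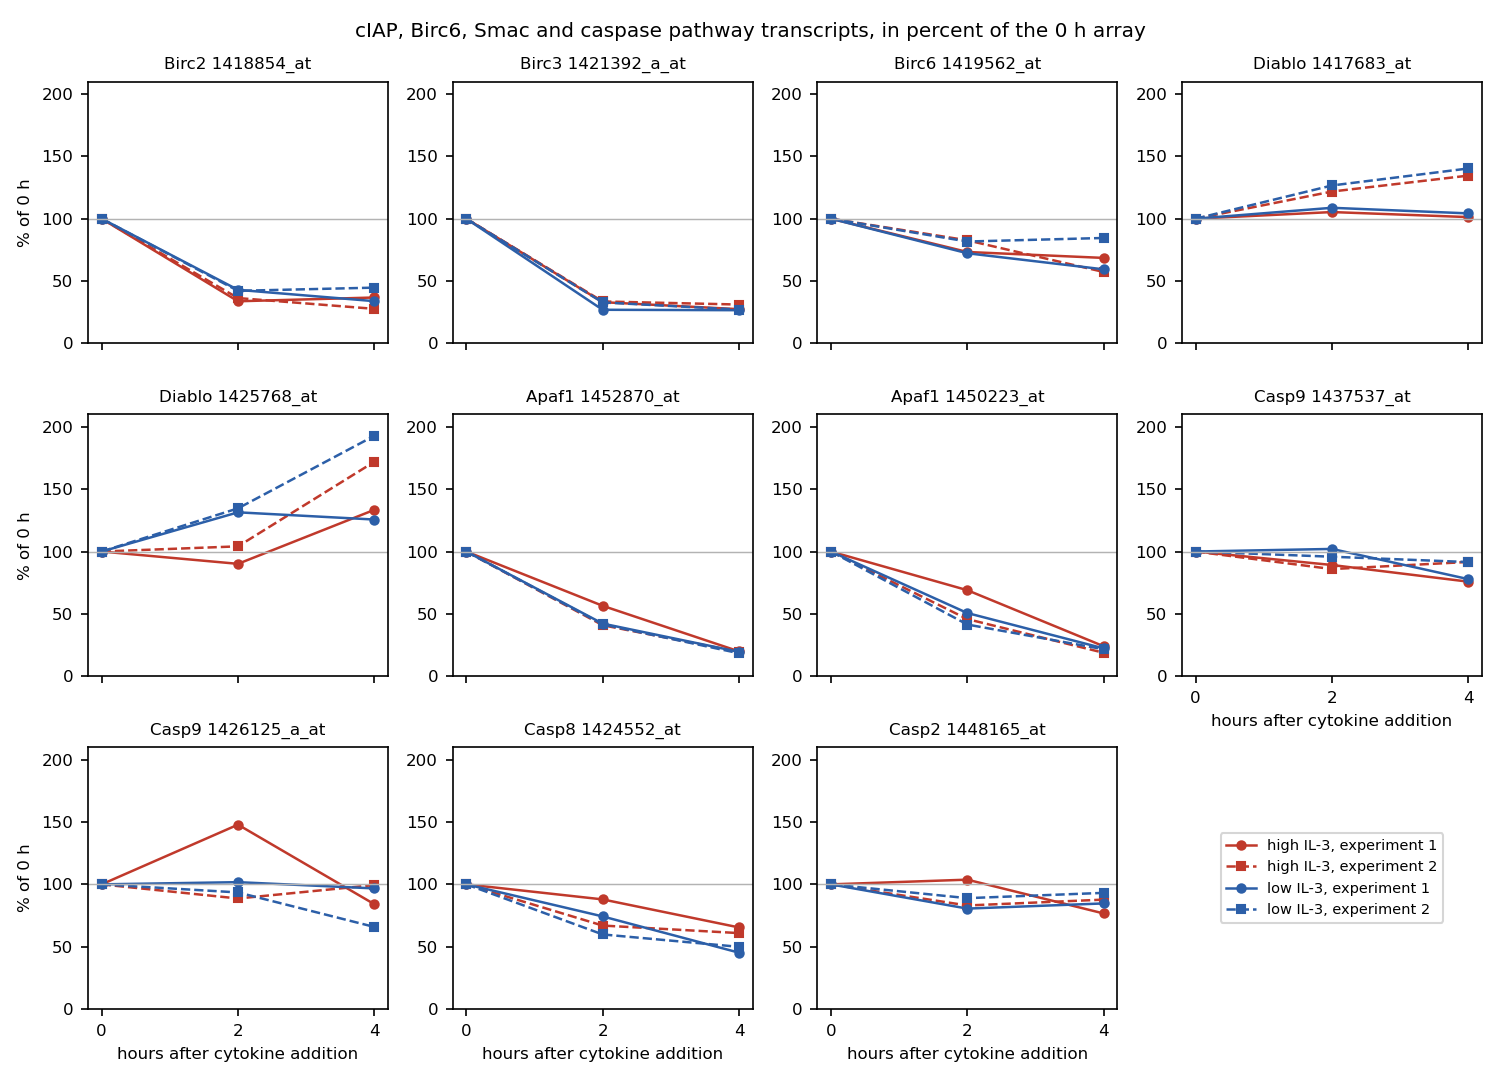
Level as a percentage of the matching 0 h array (vertical axis, from 0) against hours after cytokine addition for the 11 tested probe sets of genes other than Xiap, 1 line for each experiment and dose. Birc2 and Birc3 stand between 26.6% and 44.7% at 2 h and 4 h, both Apaf1 probe sets drop to between 18.4% and 24.1% by 4 h, and Casp2 and Casp9 end between 65.9% and 99.4%.

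Casp8, the initiator caspase of death receptors, fell moderately. It measured 1337 and 1528 at 0 h. With high IL-3 it read 1176 and 1023 after 2 h and 875 and 931 after 4 h, and with low IL-3 993 and 915 after 2 h and 605 and 763 after 4 h. Both 0 h arrays were above all others, and at 4 h both arrays of high IL-3 were above both of low IL-3. Its log2 change at 4 h was -0.85 (SE 0.11, adjusted p = 5.7e-06), made up of -0.48 to 2 h (SE 0.11, adjusted p = 0.0032) and -0.38 from 2 h to 4 h (SE 0.09, adjusted p = 0.0039). The percent of 0 h left at 4 h was 63.2 ± 3.21 at the high and 47.6 ± 3.31 at the low dose, and the half-lives were 6.04 ± 1.5 h and 3.66 ± 0.0261 h. Over all settings the log2 change at 4 h lay between -0.94 and -0.42, and the half-lives were not refitted under other scalings. The call at 2 h was lost without the 0 h array of experiment 2, as was that of Xiap 1450232_at, and with 75th percentile scaling or median centring.

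The initiator caspases of the mitochondrial and PIDD pathways did not pass at either time or between them with all arrays in the fit. Casp9 1437537_at ranged from 190.0 to 264 over the 10 arrays, with a log2 change of -0.24 at 4 h (SE 0.13, adjusted p = 0.13), and Casp9 1426125_a_at from 63.1 to 129, with -0.19 (SE 0.18, adjusted p = 0.37). Casp2 1448165_at ranged from 809.7 to 1176, with -0.22 (SE 0.11, adjusted p = 0.091). Relative to the median probe set these changes were -0.12, -0.08 and -0.11, and all 3 values were above 0 with 75th percentile scaling, quantile normalization or median centring. Casp2 passed as lower at 4 h without either array of high IL-3 at 2 h, and at 2 h without that of experiment 1. The percent of 0 h left at 4 h was 82.2 ± 7.85 at the high and 88.9 ± 5.99 at the low dose for Casp2, and 83.7 ± 11.2 and 84.7 ± 9.69 for Casp9 1437537_at.

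Other genes of the pathway were looked up from a list of 46 symbols that holds adaptors, other IAPs and caspases, and caspase substrates. The array named 33 of them with 53 probe sets, of which 35 (22 genes) were tested. At 4 h, 21 of the 35 (15 genes) passed as lower and 1 as higher, beside 39.6% and 16% of all tested probe sets. The median log2 change of the 35 was -0.53. These calls come from the main fit alone, and how they depend on the scaling or the block was not examined. The smallest p-values among those that fell belonged to Bcl10, an adaptor of NF-κB activation, by 2.48 (SE 0.13, adjusted p = 4.1e-10) and 2.47 (SE 0.16, adjusted p = 3.0e-09) for 1418970_a_at and 1418971_x_at. Bid 1417045_at, which caspase-8 cleaves to reach the mitochondrial pathway, followed with -1.89 (SE 0.13, adjusted p = 6.7e-09). Fadd, the adaptor between death receptors and caspase-8, changed by -1.97 (SE 0.14, adjusted p = 7.6e-09). The one that passed as higher was Casp4, an inflammatory caspase, by 0.34 (SE 0.13, adjusted p = 0.034). In high and low IL-3 at 4 h, Casp4 stood at 105% and 113% of 0 h in experiment 1. In experiment 2 it stood at 148% and 153%. Fadd stood at 22.0% ± 2.57 at the high and 19.4% ± 1.33 at the low dose after 4 h, and Bid 1417045_at at 24.8% ± 1.19 and 26.6% ± 1.46. Between high and low IL-3, 0 of the 35 passed in limma in either direction, where 0.692% of all tested probe sets passed as higher and 0.0169% as lower. At an unadjusted p under 0.05 there were 3 higher and 0 lower among the 35, beside 1003 of all 11856 in either direction.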

How the data were processed

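RNA of 32Dcl3 cells was measured on 10 Affymetrix mouse expression arrays, 5 groups with 1 array in each of 2 experiments. The authors normalized all arrays together with dChip at default settings, and the deposited table holds intensity on a linear scale for 22690 probe sets; its version and a genome build are not given in the sources used here. Probe sets were named from the platform annotation (20393 name 1 gene, 691 several, 1606 none). The gene IDs of 20364 probe sets matched the RefSeq table of GRCm38.p6, which changed 0 symbols.

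Probe sets with a mean of at least 50 (11856) were tested on log2(intensity + 16) with limma 3.58.1 in R 4.3.3, 5 groups with the experiment as a block, eBayes with a trend, and a Benjamini-Hochberg threshold of 0.05. Arrays of an experiment came from 1 divided culture, and their deviations from group means correlated at 0.762 to 0.887 over the 10 pairs of groups. Half-lives come from a straight line, forced through the 0 h value, fitted to log ratios in each experiment. The script was tested on simulated data. The members, lists and tests were chosen with earlier results of these data known. Named were every probe set of the 9 genes, of the pathway list up to 4 with the smallest p in each direction at 4 h, and the 5 probe sets most like the Xiap probe set with the largest difference between doses. The alternatives were pseudocounts of 1 and 64, no filter or one at 200, quantile normalization, scaling to Gapdh or to the 75th percentile, leaving out the block, the variance trend or each array. Median alignment and median centring of the arrays, and the comparison of both intervals, were added after seeing the data. The number of arrays limits the precision.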

Additional observations from a re-analysis of the deposited data

How the results depend on the processing

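With 2 cultures, the p-values rested on the block for the experiment, and actinomycin D leaves no fixed RNA total to scale by. In the order lower and higher, the 14 probe sets gave 7 and 2 calls at 4 h, 7 and 0 at 2 h, and 4 and 0 from 2 h to 4 h. No paired term, that is no replicate block, left 6 and 0 at 4 h, 1 and 0 at 2 h, 1 and 0 from 2 h to 4 h, and 0 in place of 2 in the comparison of both intervals. Between doses, where the selection of the genes leaves no test, 0 in place of 1 lay past the threshold without it. Over all tested probe sets no block left 2487 lower and 216 higher of 4696 and 1893 at 4 h, 538 and 2 of 3058 and 424 at 2 h, 528 and 0 of 3261 and 703 from 2 h to 4 h, and 0 of 82 higher between doses. A filter at a mean of 200, which tests fewer probe sets, gave 4 and 1 at 4 h, 4 lower at 2 h and 0 between intervals. Of all 7787 tested with it, 39.3% were lower and 15.7% higher at 4 h, and 24.3% were lower at 2 h. The higher calls at 4 h became 0 with no filter, 1 with no variance trend, 4 with 75th percentile scaling and 4 with median centring. Of all tested probe sets 7.47%, 14.7%, 52.7% and 53.9% were higher there, in the same order. The higher calls at 2 h became 1 with 75th percentile scaling, quantile normalization or median alignment and 2 with median centring. Of all tested probe sets 39.8%, 27.3%, 13.5% and 41.1% were higher there, in the same order. From 2 h to 4 h the higher calls became 4 with 75th percentile scaling, 2 with quantile normalization and 1 with no variance trend. With median alignment they became 2 and with median centring 4. Of all tested probe sets 30.5%, 23.5%, 4.90%, 20.5% and 32.0% were higher there, in the same order. Leaving out 1 array gave 7 to 9 lower and 0 to 2 higher at 4 h, 5 to 8 lower and 0 to 1 higher at 2 h, 4 lower and 0 to 1 higher from 2 h to 4 h, and 2 to 3 between intervals. Signs turned at 4 h for Casp2 (0.21, 0.10 and 0.20 with 75th percentile scaling, quantile normalization and median centring), Casp9 1426125_a_at (0.17, 0.16 and 0.23), Casp9 1437537_at (0.17, 0.21 and 0.19) and Xiap 1437533_at (0.20, 0.044 and 0.20). From 2 h to 4 h they turned for Birc2 (0.031, 0.039 and 0.046) and, with median centring, for Birc3 (0.015). Among changes shown only in a plot, the lowest and highest values over all settings lay on both sides of 0 at 2 h for Casp2 (-0.28 and 0.10), Casp9 1426125_a_at (-0.07 and 0.33), Casp9 1437537_at (-0.14 and 0.19) and Xiap 1456088_at (-0.23 and 0.18), and from 2 h to 4 h for Casp2 (-0.16 and 0.11), Casp9 1437537_at (-0.20 and 0.02) and Diablo 1417683_at (-0.01 and 0.20). Calls were gained at 2 h for Birc6 without either 4 h array of low IL-3 and for Diablo 1417683_at without the 0 h array of experiment 1, and from 2 h to 4 h for Xiap 1456088_at without the 2 h array of high IL-3 of experiment 1. Beyond the filter and the missing block, the cause was not tested. Of 617 refits of single tested changes, 547 kept direction and side of the threshold.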
